A study of Mus musculus with 4 samples.

Results

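The surface epithelium of the embryonic face is the thin ectodermal sheet that covers the frontonasal prominence (FNP), the tissue from which the nose and snout form. Its cells are held together by keratin filaments, claudin-based tight junctions and desmosomes, and they carry membrane-anchored proteases with their inhibitors. Here 38 genes of this kind were examined among the 33708 autosomal genes of the table. They were listed by name, with earlier results of these data known, and all 38 were found, each in 1 row. In FNPs homozygous for the MommeD43 allele of Smchd1 (MD43), 31 of the 38 had a higher log2 RPKM value than in wild type, where 51.2% of all genes with enough reads did. At least 1.5-fold higher were 17, against 4.24% of those genes.

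The FNPs came from 4 embryos of the FVB/NJ strain, dissected at E10.5 and all at 29 somites. The WT group held 2 Smchd1+/+ embryos, labeled 1 female and 1 male, and the MD43 group held 2 males labeled Smchd1MommeD43/MommeD43. MommeD43 is a missense allele that arose in a chemical mutagenesis screen and changes the ATPase region of SMCHD1, a silencing factor bound to chromatin. The second WT embryo and the second MD43 embryo shared a dam. A supplementary record of the study names WT replicate 2 as female, in which case sex and genotype cannot be told apart, and no gene on a sex chromosome was analysed here.

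The table holds 1 log2 RPKM value per genotype (reads scaled to exon length and library depth), which merges both libraries of that genotype. No value below therefore carries a spread between embryos, and no test between the genotypes was possible. The reads behind a value were recovered from it and are given as the geometric mean of the 2 libraries of a genotype, at an implied depth of 22328791 reads for MD43 and 16055882 for WT. The error given with a difference is the lower limit of the standard error, from counting alone (counting SE), and variation between embryos comes on top of it. Smchd1 itself stood at 3.30 log2 RPKM in MD43 and 3.31 in WT, which checks no label because the allele is a missense change. In a dissected piece of tissue, more epithelial cells and more RNA per epithelial cell cannot be told apart.

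Epithelial adhesion genes share features of their promoters, and 4 members are shown here because their promoters hold the E-box CACCTG on either strand, the sequence that the Snail and Zeb repressors of epithelial genes are known to bind. They were chosen after their values and matches had been seen. Epcam encodes an epithelial adhesion protein, Cldn4 a tight junction claudin, Ap1m2 the adaptor subunit that sorts proteins to the basolateral membrane, and Krt5 the type II keratin of basal cells. The sequences are the 250 bases before the RefSeq start site on GRCm38.p6, written along the strand of the gene, and capitals mark the E-boxes, which appear as the reverse complement where they lie on the other strand.
Epcam, chr17:87635729-87635978, plus strand: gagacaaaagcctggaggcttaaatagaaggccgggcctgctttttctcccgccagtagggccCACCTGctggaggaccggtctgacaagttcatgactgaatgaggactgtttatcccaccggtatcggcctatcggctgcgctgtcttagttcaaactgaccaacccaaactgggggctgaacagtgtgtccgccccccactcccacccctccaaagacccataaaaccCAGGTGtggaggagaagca
Cldn4, chr5:134946935-134947184, minus strand: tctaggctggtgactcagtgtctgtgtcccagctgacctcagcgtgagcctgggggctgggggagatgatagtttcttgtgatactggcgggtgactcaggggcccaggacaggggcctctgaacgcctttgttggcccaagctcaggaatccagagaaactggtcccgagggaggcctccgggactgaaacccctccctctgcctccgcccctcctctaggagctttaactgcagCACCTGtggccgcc
Ap1m2, chr9:21312334-21312583, minus strand: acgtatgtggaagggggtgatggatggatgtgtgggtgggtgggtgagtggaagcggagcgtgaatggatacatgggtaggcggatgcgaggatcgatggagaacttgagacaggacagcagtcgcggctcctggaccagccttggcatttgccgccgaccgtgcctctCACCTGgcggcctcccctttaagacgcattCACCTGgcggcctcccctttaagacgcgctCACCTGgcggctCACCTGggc
Krt5, chr15:101712906-101713155, minus strand: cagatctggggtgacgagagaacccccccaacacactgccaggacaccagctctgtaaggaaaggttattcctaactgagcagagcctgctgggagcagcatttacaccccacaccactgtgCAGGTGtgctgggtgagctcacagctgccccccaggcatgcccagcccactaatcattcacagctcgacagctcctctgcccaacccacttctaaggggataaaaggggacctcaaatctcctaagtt

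A promoter window was found for 24 of the 38 members, in 28 windows. CACCTG stood on either strand in 16 of the 28 windows (57.1%), in 17.2% of all 32851 windows of the same length, and in 16.2% of the 14027 windows of the genes that passed the read minimum given below. Of the members at least 1.5-fold higher, 8 of 11 had a match, and of the other members 7 of 13 did. The other letters searched were GCCNNNGGC, bound by AP-2 factors, in 7 of 28 member windows, 13.7% of all windows and 20.6% of those of the read-filtered genes, AACNNGTT, bound by Grainyhead-like factors, in 2 of 28, 3.64% and 2.95%, and TATAAA in 2 of 28, 12.4% and 6.31%. The shares of these 3 rest on few member windows. None of these motifs contains another. A match is only a string of letters, some genes have overlapping windows, and the RNA values here do not bear on binding.

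Of the 38 members, 37 had at least 10 reads in at least 1 genotype, and these are set beside the 15377 genes that passed the same minimum. Krt17 passed through its MD43 reads alone, so its presence among the 37 is not independent of its direction. The median difference (MD43 minus WT, log2 RPKM) was 0.53 for the 37 members and 0.01 for all 15377 genes. Of the members, 31 (83.8%) were higher in MD43, against a background of 51.2% of all genes. At least 1.5-fold higher were 17 members (45.9%), against 4.24% of all genes. None was at least 1.5-fold lower, against 6.43% of all genes. The middle of the members' distribution ran from a lower quartile of 0.31 to an upper quartile of 0.70. For 29 members the narrowest 95% counting interval lay above 0, and for Pkp2 and Dst it lay below 0.

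The summed RPKM of the 37 members was 328 in MD43 and 227 in WT, a difference of 0.53 on the log2 scale. The order of the members by level was nearly the same in both genotypes, with a Spearman rho of 0.96 over 37 genes that share the same libraries. The level of a member said little of its difference (rho = -0.12). In the plot of levels, Krt18, Krt8 and Cldn6 lead in both genotypes. Krt8 and Cldn6 had the same WT level to 2 decimals, 4.60 log2 RPKM, while in MD43 Cldn6 (5.47) stood above Krt8 (5.30).

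**Figure D1:**
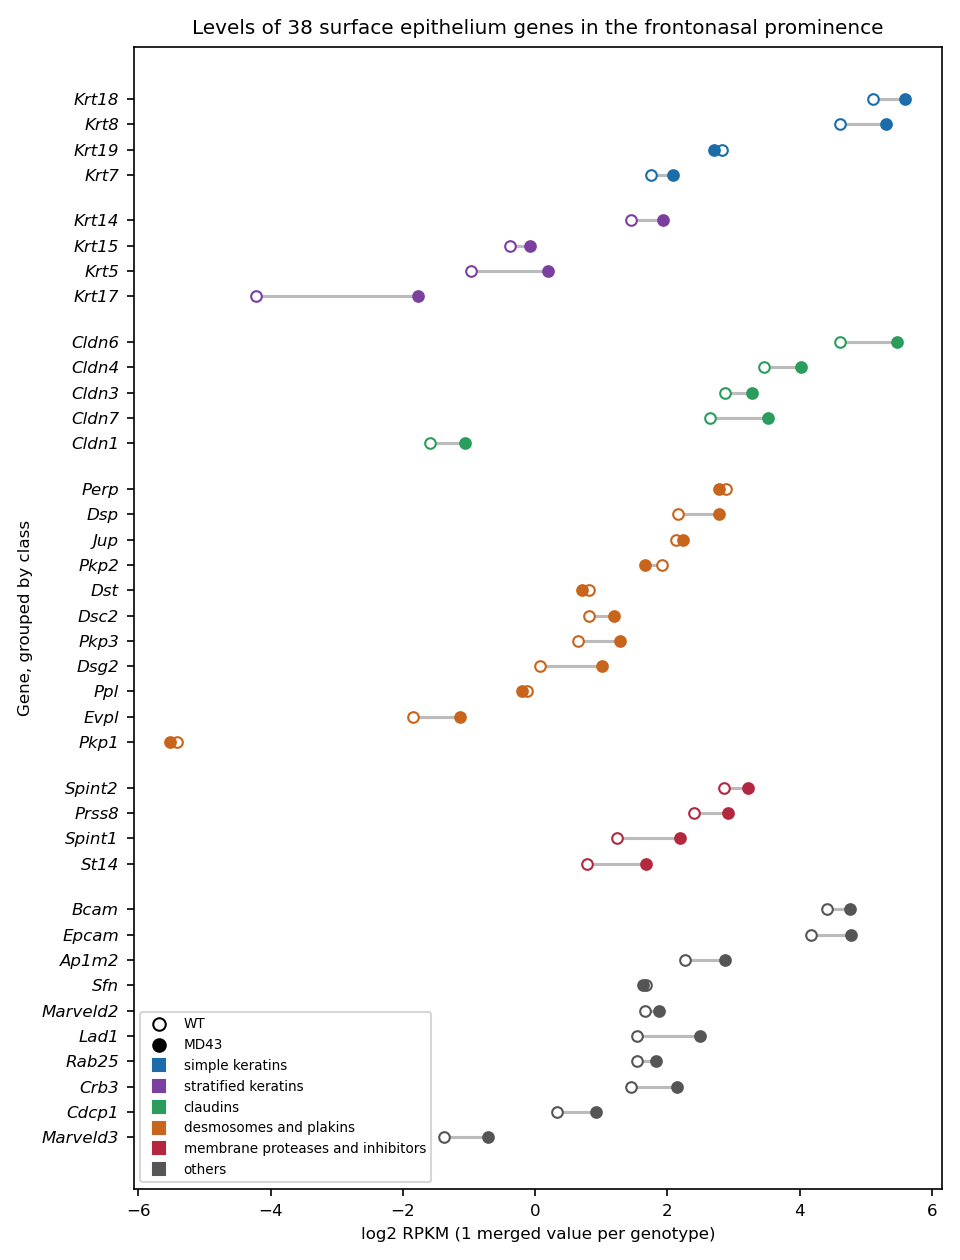
Level of each of the 38 genes in log2 RPKM (horizontal axis) in WT (open circles) and MD43 (filled circles), grouped by class and ordered by the WT level, with 1 merged value per genotype and no error bar. The filled circle lies to the right of the open circle for 31 of the 38 genes, and Krt18 is highest in both genotypes, at 5.11 and 5.60.

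Keratins form filaments from pairs of a type I and a type II chain, and the pair changes as an epithelium matures. Krt8 (type II) and Krt18 (type I) make up the filaments of simple epithelia, while Krt5 (type II) and Krt14 (type I) form those of the basal layer of stratified epithelia. In these FNPs the simple pair was far more abundant. Krt18 (ENSMUSG00000023043, GRCm38 chromosome 15, 102028180 to 102032027, plus strand) reached 5.60 log2 RPKM in the MD43 value and 5.11 in the WT value, on 1551 and 797 reads. Its difference was 0.49 ± 0.04 (counting SE). Krt8 was at 5.30 and 4.60, from 1724 and 763 reads, and its difference of 0.70 ± 0.04 was above the 1.5-fold mark. Its gene lies 23.7 kb from Krt18.

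The ratio of Krt8 to Krt18 on the RPKM scale was 0.815 in MD43 and 0.703 in WT, which differ by 0.21 ± 0.06 on the log2 scale. Thus both partners were higher in MD43, and Krt8 by the wider margin. Krt7, another type II keratin of simple epithelia, differed by 0.33 ± 0.07. Krt19, a small type I keratin that lacks the usual tail, did not share this direction. It had 2.70 log2 RPKM in MD43 and 2.82 in WT, a difference of -0.12 ± 0.09 with an interval from -0.31 to 0.06.

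The stratified keratins were low in both genotypes, as the summed RPKM of Krt5, Krt14, Krt15 and Krt17 was 6.19 in MD43 and 4.07 in WT, against 98.5 and 69.3 for the simple keratins. Krt5 rested on 56.1 MD43 reads and 18.0 WT reads, with a difference of 1.17 ± 0.28, or 2.25-fold, which was 0.51 with a pseudocount of 1 RPKM. Its partner Krt14 had 149 and 77.4 reads and differed by 0.47 ± 0.14. Krt15, a type I chain of basal cells, had 37.5 and 21.8 reads, and its difference of 0.31 ± 0.27 was close to its counting SE. The ratio of Krt5 to Krt14 was 0.301 in MD43 and 0.186 in WT. Among the members, the ratio of stratified to simple keratins was 0.063 and 0.059. Its log2 difference of 0.09 ± 0.12 was within counting error and covers these members only. Krt10, which is in neither sum, was at 2.06 log2 RPKM in MD43 and 2.30 in WT, above Krt14 in both. Of the 3 keratins outside the members with enough reads, 1 was higher in MD43 and 2 were lower.

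Krt17, a type I keratin of the periderm and of skin appendages, had the highest difference of all members without a pseudocount, 2.44 ± 0.94, on very few reads. With a pseudocount of 0.1 RPKM it was 1.35 and with 1 RPKM it was 0.29, where Cldn6 was highest at 0.84. Its MD43 value rested on 10.1 reads and its WT value on 1.34, and the narrowest interval ran from 0.60 to 4.27. The WT product of 1.80 can arise only from 1 library with 2 reads and 1 without reads. Whether the MD43 reads lay in 1 embryo is unknown. The type II members (Krt5, Krt7 and Krt8) together stood at 0.749 of the sum of the type I members in MD43 and 0.624 in WT. The log2 difference was 0.26 ± 0.06, with keratins outside the members left out.

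**Figure D2:**
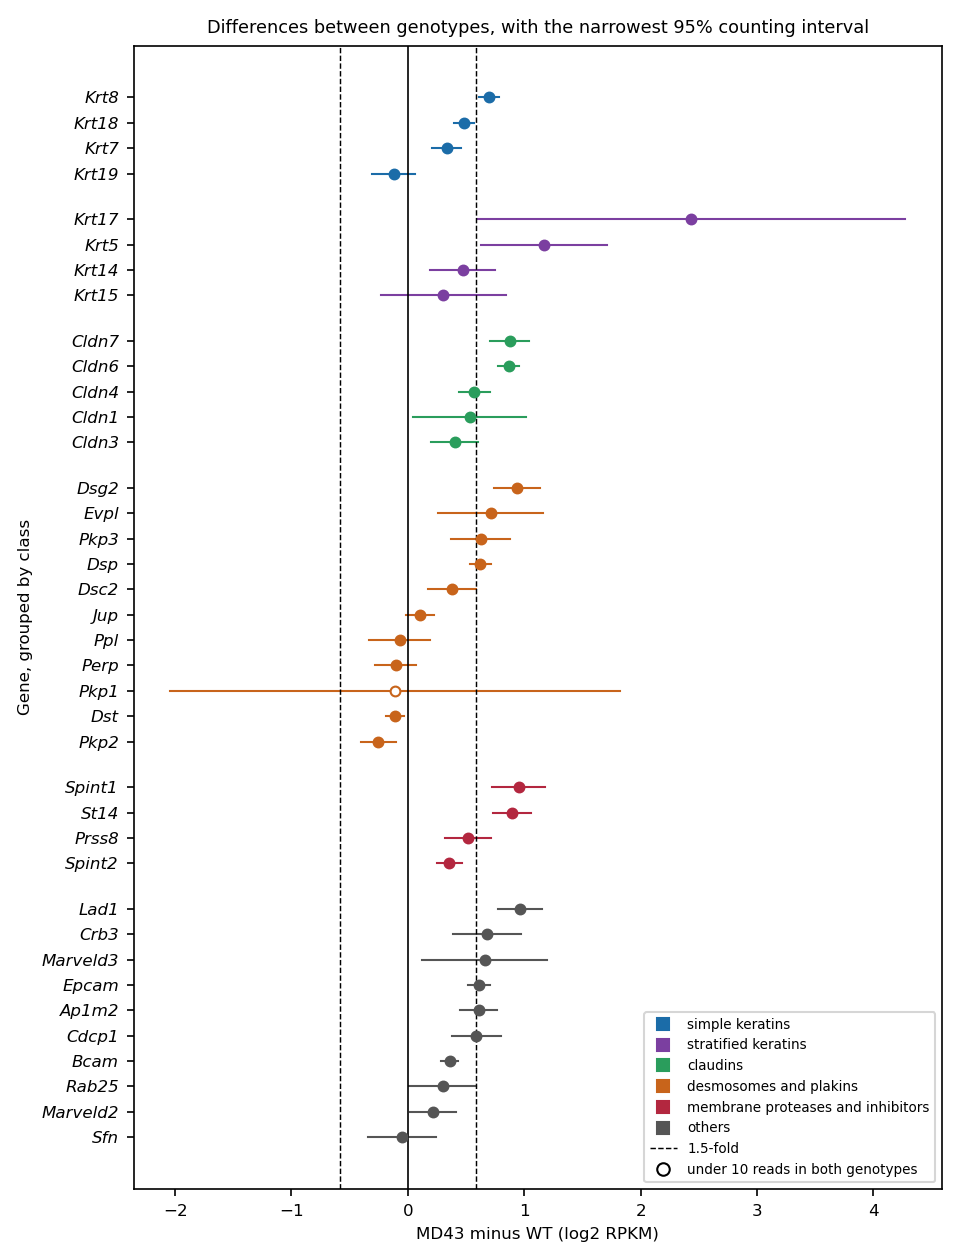
Difference between the genotypes (MD43 minus WT, log2 RPKM) for each of the 38 genes by class, with the narrowest 95% interval that read counting allows as a line, and dashed lines at 1.5-fold. All 5 claudins and all 4 protease genes lie to the right of 0, whereas the desmosome genes run from Pkp2 at -0.26 to Dsg2 at 0.94.

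The keratins lie in 2 gene clusters. On chromosome 11, Krt15, Krt19, Krt14, Krt17 and the desmosomal gene Jup lie within 266 kb, and their differences ran from -0.12 to 2.44. On chromosome 15, Krt7, Krt5, Krt8 and Krt18 lie within 621 kb and ran from 0.33 to 1.17. The nearest neighbors, Krt15 (0.31) and Krt19 (-0.12), are 4.88 kb apart, and their counting intervals overlap. Lad1 and Pkp1 on chromosome 1, 38.1 kb apart, had 429 reads and 2.45 reads in MD43.

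Claudins seal the space between epithelial cells, and all 5 listed were higher in MD43, with a median difference of 0.57. Cldn6, a claudin of embryonic epithelia, was the most abundant, with an MD43 level of 5.47 log2 RPKM and a WT level of 4.60, on 1701 and 671 reads. Its difference was 0.87 ± 0.05 (1.82-fold). Cldn7, which also lies along the basolateral membrane, differed by 0.87 ± 0.09, from 498 and 195 reads. Cldn4 (0.57 ± 0.07) and Cldn3 (0.40 ± 0.10), whose genes are 39.3 kb apart, differed less. Cldn1, the claudin of the skin barrier, had 51.6 and 25.7 reads and differed by 0.53 ± 0.25. The ratio of Cldn6 to Cldn3 was 4.57 in MD43 and 3.31 in WT, a log2 difference of 0.46 ± 0.11.

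Desmosomes link keratin filaments of adjacent cells through cadherins (Dsg2, Dsc2), armadillo proteins (Jup, Pkp1, Pkp2, Pkp3) and plakins (Dsp, Evpl, Ppl). This class was the most divided, with 6 of its 10 used members higher, 4 lower and a median of 0.24, which was 0.10 without the read minimum and 0.14 with a pseudocount of 1 RPKM. Dsg2 was highest, with 374 reads in MD43 and 140 in WT and a difference of 0.94 ± 0.10. Its partner Dsc2 differed by 0.38 ± 0.10. Desmoplakin (Dsp), which anchors keratins to the plaque, was at 2.78 and 2.16 log2 RPKM, a difference of 0.62 ± 0.05. Pkp3 differed by 0.63 ± 0.13 and envoplakin (Evpl) by 0.71 ± 0.23.

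The rest of the class did not move with them. Plakophilin 2 (Pkp2) was the lowest of all members at -0.26 ± 0.08, from 379 reads in MD43 and 326 in WT. Dst, a giant plakin with separate epithelial, neuronal and muscle forms, differed by -0.11 ± 0.04. Its value covers 41155 bases of exon, so that the epithelial form cannot be read from it. Perp (-0.10 ± 0.09), a membrane protein of desmosomes, Ppl (-0.07 ± 0.13) and Jup (0.10 ± 0.06) lay closer to 0 than 2 counting SEs. Jup and Pkp2 are also known from tissues outside the surface epithelium, such as the heart. That holds for other desmosome genes too, and its part in these differences was not tested. Pkp1, a plakophilin of the upper epidermis, was at 2.45 MD43 reads and 1.90 WT reads, and no fold is given.

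The membrane proteases and their inhibitors were higher in MD43 in 4 of 4 cases, with a median of 0.70. St14 encodes matriptase and Prss8 encodes prostasin, which activate each other at the epithelial surface. Spint1 and Spint2 encode the Kunitz inhibitors that hold them in check. St14 rested on 545 MD43 and 211 WT reads and differed by 0.89 ± 0.08, and Prss8 had 313 and 157 reads and differed by 0.52 ± 0.10. Spint1 had 283 and 105 reads and differed by 0.95 ± 0.12. Spint2, the more abundant inhibitor at 3.22 and 2.86 log2 RPKM, differed by 0.36 ± 0.06. Spint1 and St14 kept the same ratio within counting error, at 1.43 in MD43 and 1.38 in WT (log2 difference 0.06 ± 0.14). The ratio of Spint1 to Spint2 was 0.493 and 0.327, which differ by 0.59 ± 0.13. The RPKM sum of both inhibitors stood at 1.29 of that of both proteases in MD43 and 1.37 in WT. That log2 difference was -0.09 ± 0.09, and -0.27 ± 0.08 with reads not divided by length.

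Of the 10 remaining members, 9 were higher, with a median of 0.60. Lad1, the anchoring filament protein ladinin, differed most among them, at 2.50 log2 RPKM in MD43 and 1.54 in WT, a difference of 0.96 ± 0.09 (1.95-fold). Epcam was at 4.78 and 4.16, from 1345 and 632 reads, and differed by 0.61 ± 0.05. The polarity gene Crb3 differed by 0.68 ± 0.15 and the sorting adaptor Ap1m2 by 0.61 ± 0.08. Marveld3 and Marveld2, both of tight junctions, differed by 0.66 ± 0.27 and 0.22 ± 0.10. The transmembrane protein gene Cdcp1 differed by 0.59 ± 0.11, just above the 1.5-fold mark of 0.585, and Cldn4 at 0.57 lay just below it, a gap smaller than the counting SE of either. Bcam, a laminin receptor, had 1943 and 1090 reads and differed by 0.36 ± 0.04. The small GTPase gene Rab25 differed by 0.30 ± 0.15. Sfn, which encodes the epithelial 14-3-3 protein stratifin, was at 1.63 and 1.68 log2 RPKM, a difference of -0.05 ± 0.15.

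**Figure D3:**
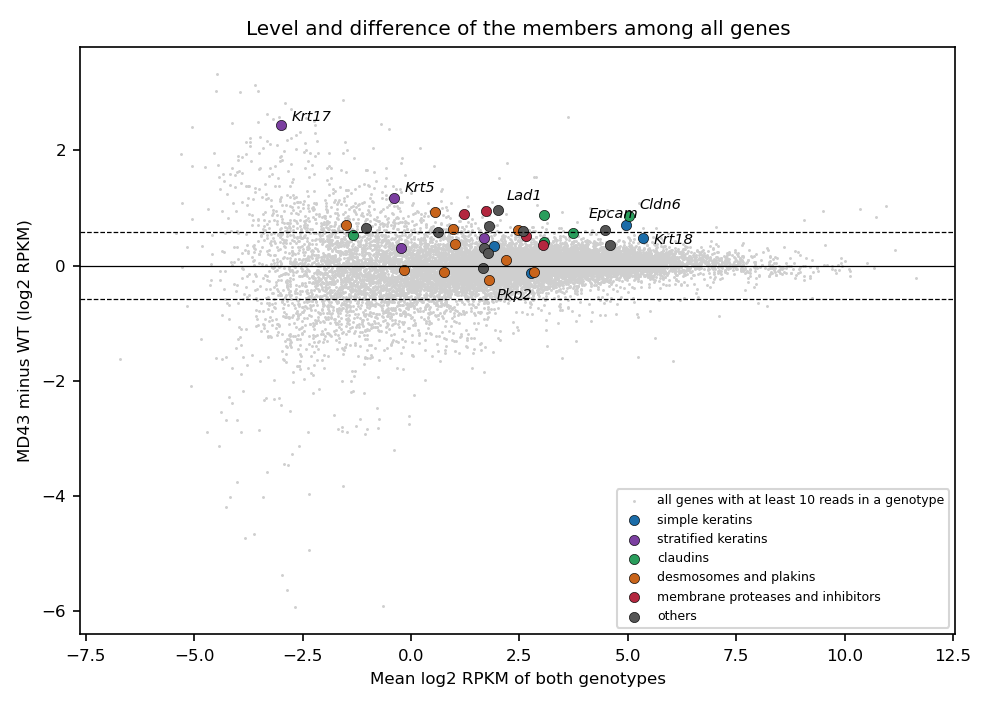
Mean log2 RPKM of both genotypes (horizontal axis) against the difference MD43 minus WT (vertical axis) for the 15377 used genes (gray) and the 37 members among them (colored by class), with dashed lines at 1.5-fold. The members with a mean level above 0 sit mostly between 0 and 1, above the bulk of the gray points, and Krt17 and Krt5 are the only members past 2-fold.

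For 10 members an exon overlaps an exon of another annotated gene on the opposite strand, and whether the authors' counting used strand is not given in the sources used here. Of these, 6 have a partner with at least 10 reads. The largest partner is Kat8, which overlaps Prss8 and had 767 MD43 reads and 580 WT reads, with a difference of -0.07. Keratins and claudins are families of related sequence, and reads can be shared among their members.

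Other epithelial genes were then listed, leaving the members out, to see how far the pattern reached. As with Krt17, some of them reached 10 reads in only 1 genotype, among them Cldn23 in MD43, Krt20 in WT and several oral ectoderm, pharyngeal endoderm and macrophage markers, so that their inclusion depends on their direction. Of 16 other tight junction and polarity genes, 13 were higher (81.3%, against 51.2% of all genes), with a median of 0.30. Only 1 was past 1.5-fold (6.25%), near the 4.24% of all genes. Llgl2, a basolateral polarity gene, differed by 0.51 ± 0.08 and F11r, a junctional adhesion molecule, by 0.49 ± 0.08. Of 13 other desmosome and adherens junction genes, 8 had at least 10 reads and 7 of these were higher, with a median of 0.06. Cdh1, the epithelial cadherin, differed by 0.73 ± 0.05 and Nectin1 by 0.46 ± 0.05.

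Among 14 epithelial splicing and transcription regulators, 13 were used and 9 were higher, with a median of 0.26. Past 1.5-fold were 3 (23.1%, against 4.24% of all genes). Among the 3 is Ovol2, which passed the read minimum through MD43 alone. Grhl2 differed by 0.68 ± 0.06 and the splicing factor Esrp1 by 0.59 ± 0.05. Of 15 other membrane proteases and related genes 7 were used, and Met (0.36 ± 0.13) alone had 50 reads in each genotype. The used genes were 6 higher and 1 lower with a median of 0.50, which is the value of Tmprss6, and both Tmprss6 and Tmprss13 passed the read minimum through MD43 alone. The 10 hemidesmosome and basement membrane anchors gave 5 higher and 4 lower of 9 used, with a median of 0.14. Itga3, a laminin-binding integrin, differed by 0.67 ± 0.05. The counting interval lay above 0 for 5 of them and below 0 for 2. These 2 were Itgb4 (-0.51 ± 0.20) and Lamb3 (-1.15 ± 0.38), each with under 50 reads in a genotype.

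Other claudins and other keratins were mixed or nearly without reads. Of 16 further claudins 8 were used, 4 higher and 4 lower, with a median of 0.01, and the counting interval lay above 0 for 3 and below 0 for none. Cldn9 differed by 0.68 ± 0.15 and Cldn5, the claudin of blood vessels, by -0.11 ± 0.12. Of 17 further keratins, 10 had no reads in any library, among them Krt4, Krt6a and Krt13, and 3 were used, with Krt10 at -0.25 ± 0.11. The periderm list, of which 3 of 10 genes are also members, had a median of -0.05. In it, Gabrp differed by -1.03 ± 0.18.

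**Figure D4:**
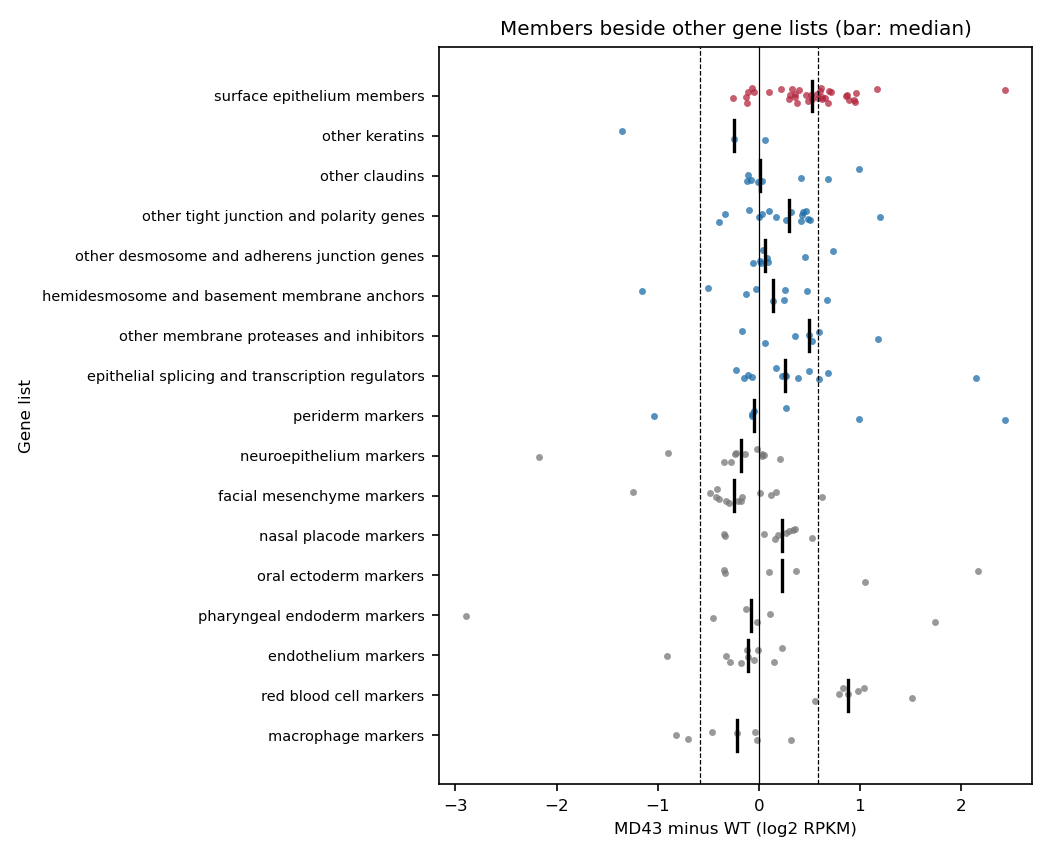
Difference MD43 minus WT (log2 RPKM, horizontal axis) of each used gene, for the members (red), other epithelial lists (blue) and markers of other tissues (gray), with the median of each list as a black bar and dashed lines at 1.5-fold. The member median of 0.53 is exceeded by that of the red blood cell markers, 0.88.

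Markers of other cell types in the piece also differed between the genotypes, those of red blood cells in the direction of the members and those of several other tissues in the opposite direction. Of 9 red blood cell markers 7 were in the table and all 7 were higher in MD43, with a median of 0.88. Past 1.5-fold were 6 (85.7%, against 4.24% of all genes). The summed RPKM of the 7 was 5818 in MD43 and 3059 in WT. Slc4a1, the red cell anion exchanger, differed by 1.52 ± 0.08 and the embryonic globin Hbb-bh1 by 1.04 ± 0.01. Of 14 facial mesenchyme markers 10 were lower, with a median of -0.25 and a summed RPKM of 365 in MD43 and 438 in WT. Col1a1, a fibrillar collagen gene, differed by -1.25 ± 0.08. Of 12 neuroepithelium markers 8 were lower, with a median of -0.18 and sums of 373 and 411, and Fabp7 differed by -0.89 ± 0.05 and Pax6 by -0.35 ± 0.03.

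Nearer to the surface epithelium, 8 of 10 nasal placode markers were higher, with a median of 0.23 and sums of 121 and 108. Dlx5 differed by 0.52 ± 0.10 and Eya2 by 0.36 ± 0.05. Of 6 oral ectoderm markers 4 were higher, with a median of 0.23 and sums of 48.2 and 45.7, and Pitx1 differed by 1.05 ± 0.08. Pharyngeal endoderm markers had a median of -0.07 (2 of 6 used genes higher, sums of 23.0 and 27.0, Pax1 and Nkx2-5 without reads), with Nkx2-1 at -0.45 ± 0.06 and Cxcr4 at -0.02 ± 0.07. Endothelium markers had a median of -0.11 (2 of 10 higher, sums of 24.2 and 27.0), with Flt1 at -0.90 ± 0.14 and Kdr at -0.33 ± 0.08. Macrophage markers had a median of -0.21 (1 of 7 higher, sums of 7.15 and 8.67), with Cd68 at -0.46 ± 0.20 and Csf1r at -0.03 ± 0.09. The part of any of these tissues in the members' differences was not tested.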

How the data were processed

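Each FNP gave 100 ng of RNA for a stranded mRNA library. The authors trimmed the reads (Trim Galore 0.4.4), mapped them to GRCm38.p6 (HISAT2 2.0.5) and quantified genes in SeqMonk. The deposited values are log2 RPKM, which the authors scaled to library size and to the length of the transcript, with sex chromosomes left out and both libraries of a genotype merged into 1 column. The deposited columns of the authors' log2 fold change, mean and FDR (q-value) were not used.

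Rows were joined to GENCODE M21 (33101 matched). Genes without reads share a difference of -0.4758, which gives the ratio of depths between MD43 and WT (1.39). A library without reads was assumed to hold 0.9 reads, and the implied depths rest on this value. The product of the reads of both libraries followed, and 99.9% of products under 1000 in each genotype were whole, or 0.9 or 0.81 times whole, to within 0.01. The recovery was also run on data simulated with the same merging and the same 0.9 reads, which checks its arithmetic only. Counting SEs used the square root of this product, and 95% intervals are normal intervals from them. They cover counting error only.

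Used genes had at least 10 reads in a genotype. No test was made, so a gene past 1.5-fold is a description. The members, classes and lists were chosen with earlier results of these data known. All members are named, as are the 2 genes of each other list with the largest difference among those with at least 50 reads in each genotype, though a few of these are not reported here. Promoters came from RefSeq (GRCm38.p6). Alternatives were pseudocounts, other filters and folds, centering, and a correction for GC content and length (quadratic fit, 1.39% of the variance). Python 3.11.15, numpy 2.4.6 and pandas 2.3.3 were used.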

Additional observations from a re-analysis of the deposited data

How the results depend on the processing

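The median difference of the members, 0.53, ranged from 0.36 to 0.53 over the alternatives and kept its direction, as did the median of every class and the difference of every used member. With a pseudocount of 1 RPKM, which exceeds the level of several members, 7 members were past 1.5-fold in place of 17 (0.462% of all genes), and the median of the remaining class (Lad1, Epcam and others) was 0.35 in place of 0.60. That of the stratified keratins was 0.33 in place of 0.82, and 0.47 without Krt17. With the lower fold mark (0.322 on the log2 scale) 27 members were higher (10.3% of all genes), and with a 2-fold mark 2 were, Krt5 and Krt17 (1.64% of all genes), by the marks themselves. When 50 reads were required, 15 of 34 members were past 1.5-fold (1.51% of all genes), and centering left 16, without Cdcp1. Leaving out Krt17, an alternative chosen after seeing the data, gave 16 of 36. The keratin, claudin and protease ratios kept their direction with reads not divided by length. The size of the log2 difference for both inhibitors against both proteases depended on it, at -0.09 on RPKM and -0.27 on reads.

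No paired analysis was possible because each genotype has a single merged value, and for the same reason no replicate was left out. Whether 1 embryo decides a value is unknown. Depth limits Krt17, Pkp1, Krt5 and Krt15 most.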

Other observations

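A few epithelial genes of low level differed by more than most members but had under 50 reads in a genotype, and they are named here after their values were seen. Ovol2, a transcription factor that keeps cells epithelial, was read 34.9 times in MD43 and 5.66 times in WT, giving 2.15 ± 0.46 (counting SE), and it passed the read minimum through MD43 alone. Its relative Ovol1 had 33.3 and 26.5 reads and a difference of -0.15. Ildr1, a protein of the corners where 3 cells meet, had 52.0 and 16.2 reads, giving 1.20 ± 0.29, while Marveld2, which sits at the same corners, differed by 0.22 ± 0.10. Hpn, the membrane protease hepsin, had 46.9 and 14.9 reads and differed by 1.18 ± 0.30. Among the keratins, Krt20 went the other way, with 9.49 reads in MD43 and 17.4 in WT and a difference of -1.35 ± 0.41, having passed the read minimum through WT alone.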
